A study of Mus musculus with 32 samples.

Results

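Retinoic acid is the vitamin A derivative that drives spermatogonia to differentiate and then to enter meiosis. Retinol is taken up by cells through STRA6, converted to retinaldehyde and oxidised to retinoic acid by the retinaldehyde dehydrogenases ALDH1A1 and ALDH1A2. CRABP1 binds the acid in the cytoplasm, CYP26B1 hydroxylates it for removal, and the nuclear receptors RARA, RARB and RARG carry it to DNA as partners of the RXR proteins. STRA8, named for being stimulated by retinoic acid, is present in differentiating spermatogonia and preleptotene spermatocytes and is required for the start of meiosis. Levels of the genes for these 9 proteins were followed in germ cells of the first wave of spermatogenesis and in adult spermatocytes of late meiotic prophase.

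RNA of Stra8 had a lower mean at each successive age and was at 41.5% of its level of 8 days post partum (dpp) by 18 dpp, and the adult spermatocytes held 1.31% of that level. Stra6, Aldh1a1, Crabp1, Rara and Rarg were also lower at 18 than at 8 dpp. Aldh1a2 followed another course. Its level was lowest at 14 dpp, rose between 16 and 18 dpp, and was higher in adult spermatocytes than in any juvenile mouse. Cyp26b1 was highest at 12 and 14 dpp and was 0.922 TPM in adult spermatocytes. Rarb stayed near or under 1 TPM in every library.

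The genes were chosen by symbol and matched to 1 gene each of the GENCODE M21 annotation of the mouse genome (build GRCm38). They are 9 of the 85539 genes in the deposited juvenile transcript table. Of these, 8 are among the 20368 genes of the juvenile gene table, which holds genes that reached 3 TPM in at least 1 mouse, and Rarb was read as the sum of its transcripts. TPM is RSEM's abundance unit, a share of all transcripts in a library after correction for transcript length, so levels of different genes can be set side by side. All values below are TPM unless they are called differences, and differences are between means of log2(TPM + 1).

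The samples were all from male C57BL/6J mice with no transgene or treatment. Germ cells were isolated from the testes of 28 juvenile animals, with 1 library per mouse. There were 3 mice of 8 dpp, and the ages 10, 12, 14, 16 and 18 dpp had 5 mice apiece. The paper collected 5 at 8 dpp as well. It left out 2 of them because their cytology and RNA matched others of that age poorly. The spread at 8 dpp is thus among mice kept after that inspection. The 14 dpp mice bear the numbers 1, 2, 3, 6 and 7 and those of the other ages run from 1. The adult group has 4 samples of pachytene and diplotene spermatocytes, each pooled from 6 mice of 9 weeks after sedimentation in a STA-PUT gradient. Cells of the fractions were recognised by size and form, and the paper also scored their purity by antibody staining of stage-specific proteins. The question that these ages address is how RNA changes as the leading cells of the first wave pass from spermatogonia to diplotene spermatocytes.

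The juvenile suspensions were filtered but not sorted. The paper scored the large majority of stained cells in every juvenile sample as germ cells, and RNA of other testis cells was also measured in these suspensions. Markers of Sertoli cells, the somatic nurse cells of the tubule, summed to 8998 to 9983 TPM over 8 of 8 genes at 8 dpp and to 3881 to 5135 TPM at 18 dpp. Clu was the largest part of this sum, at 5377 and 2899 TPM on average. The markers did not all move alike, as Amh went from 358 to 59.4 TPM and Rhox5 from 36.6 to 68.4 TPM. Markers of peritubular cells, the contractile cells around the tubule, summed to 1051 to 1160.0 TPM over 5 of 5 genes at 8 dpp, averaged 1436 TPM at 14 dpp and were 524 to 1034 TPM at 18 dpp. Markers of spermatogonia, over 6 of 6 genes, averaged 710.2 TPM at 8 dpp and 382 TPM at 18 dpp, whereas 6 of 6 markers of pachytene spermatocytes went from an average of 52.3 to 3800.4 TPM. In the adult samples the Sertoli sum was 319.5 to 469 TPM and the peritubular sum 5.57 to 10.7 TPM. The Sertoli markers there ran on average from Clu at 313 TPM, Aard at 40.6 TPM and Cldn11 at 26.1 TPM down to Amh at 1.43 TPM and Fshr at 0.615 TPM. The peritubular markers ran from Tagln at 3.34 TPM to Cnn1 at 0.238 TPM. Other marker sums were not low in the adult samples. Those of spermatids, over 6 of 6 genes, summed to 691 to 928 TPM, with Tnp1 at 273 TPM and Prm1 at 209 TPM, against an average of 10.6 TPM at 18 dpp. The Leydig sum, over 6 of 6 genes, averaged 234 TPM, or 124% of 8 dpp, and rested mostly on Insl3. Insl3 averaged 176 TPM in the adult samples and 58.3 TPM at 8 dpp. Each other Leydig marker was lower in the adult samples than at 8 dpp, such as Cyp17a1 at 28.8 against 43.3 TPM. Each of the 9 genes is therefore measured in a mixture that changed with age. From such bulk RNA alone, fewer cells of a type and less RNA per cell cannot be told apart. The paper also staged germ cells of each juvenile sample by antibody labelling, and those counts were not used here.

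Mice of 1 age also fell into sets by their number. At 18 dpp, mice 1 to 3 had pachytene sums of 4502 to 4656 TPM and Sertoli sums of 3881 to 4051 TPM, and mice 4 and 5 had pachytene sums of 2547 and 2673 TPM and Sertoli sums of 5066 and 5135 TPM. At every age from 10 to 18 dpp the later-numbered mice, those above number 3, averaged a higher peritubular sum than mice 1 to 3. The labels do not say what the numbers stand for, and 8 dpp has mice 1 to 3 only, so values are given for both sets where a call or a direction turned on them. Of the 15 library barcodes of the juvenile mice, 13 served once at 8 to 12 dpp and again at 14 to 18 dpp. The step from 12 to 14 dpp, the comparison of 18 with 8 dpp and the test over all ages each cross between these age ranges. The labels do not say whether the libraries of these ranges were prepared apart.

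**Figure D1:**
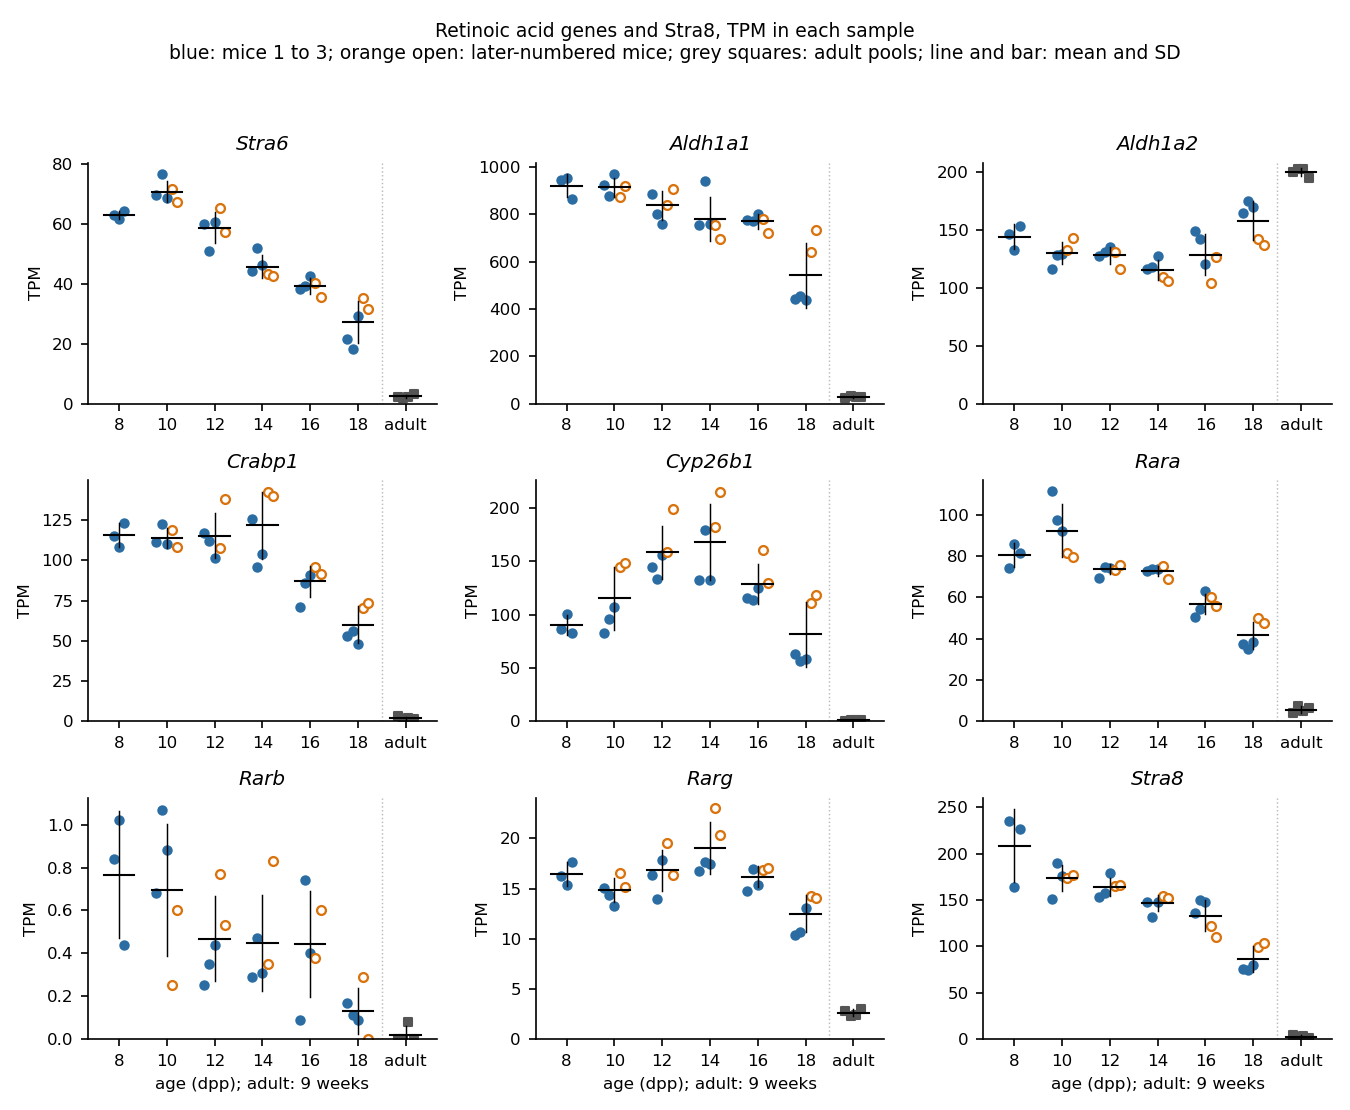
TPM of the 9 genes in each sample by age, on linear axes from 0. Blue points are mice 1 to 3, open orange points later-numbered mice and grey squares adult pools, with the group mean and SD. Aldh1a2 is the gene whose adult samples, at 195 to 203 TPM, lie above all juvenile mice.

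All 8 genes of the gene table differed among the 6 ages by limma's moderated F test at an adjusted p under 0.05. That was so for 77.6% of all genes tested, so the call itself does not set these genes apart. From 8 to 18 dpp, 6 of the 8 were lower and 0 higher at an adjusted p under 0.05, beside 36.3% of all genes lower and 31.8% higher. At an unadjusted p under 0.05 in limma the number higher was also 0. The median difference of the 8 genes was -0.87, and that of all genes -0.09. In the step from 16 to 18 dpp, 7 of the 8 fell and Aldh1a2 rose, where 30.6% of all genes fell and 23.4% rose. In the steps from 8 to 10 and from 12 to 14 dpp 0 of the 8 passed limma's test and 1 had an unadjusted p under 0.05, beside 1.2% and 0.172% of all genes called in either direction.

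**Figure D2:**
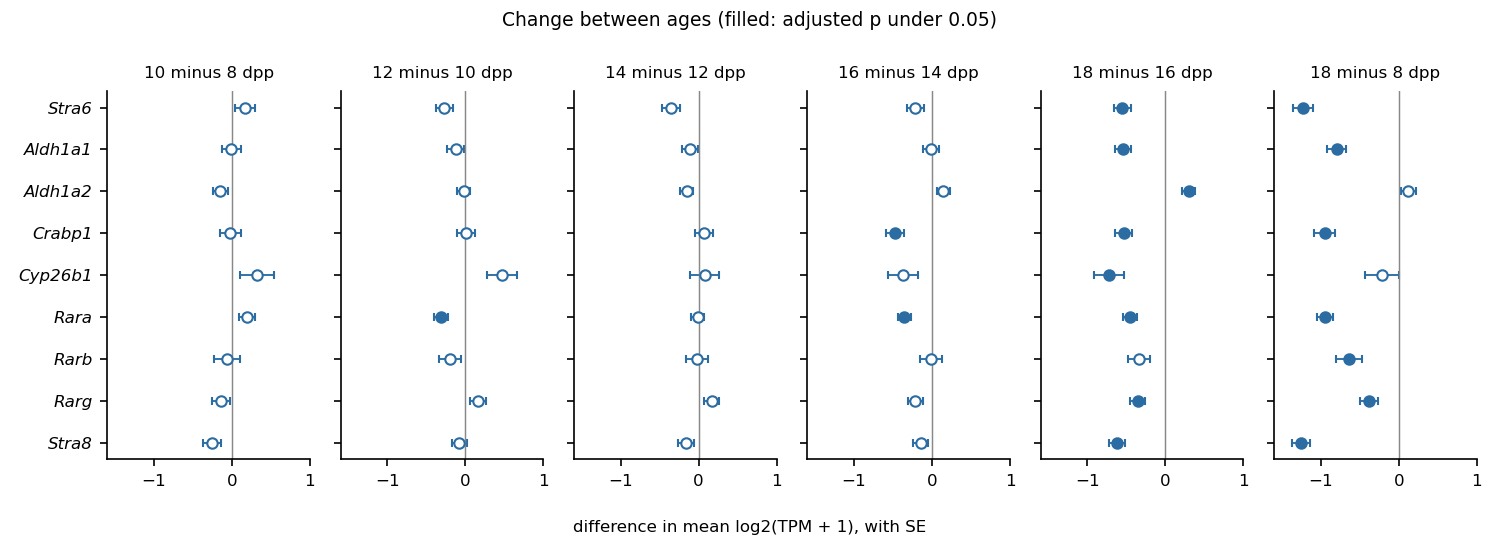
Differences in mean log2(TPM + 1) between neighbouring ages and between 18 and 8 dpp, with standard errors. Filled points have an adjusted p under 0.05, and Rarb comes from the fit over all genes above 0. The panel of 18 minus 16 dpp holds 8 filled points, of which Aldh1a2, at 0.30, is the one to the right of 0.

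Stra6 (ENSMUSG00000032327, chr9:58063788-58153996, plus strand) encodes the membrane receptor that brings retinol into cells from its carrier in blood. The mice held 63.0, 61.6 and 64.2 TPM at 8 dpp and 69.8, 76.8, 68.6, 71.5 and 67.5 TPM at 10 dpp. At 18 dpp they held 21.6, 18.2, 29.2, 35.2 and 31.5 TPM, so no 18 dpp mouse reached the lowest 8 dpp mouse. The difference between 18 and 8 dpp was -1.22 ± 0.13 (SE; adjusted p = 3.9e-09 by limma), and the step from 16 to 18 dpp was -0.55 ± 0.11 (adjusted p = 0.00021). Adult samples averaged 2.42 ± 0.612 TPM (SD, n = 4). Stra6 overlaps Ccdc33 on the other strand and Gm16131 on the same strand, and the use of strand in counting is not given in the sources used here.

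Aldh1a1 (ENSMUSG00000053279, chr19:20492715-20643465, plus strand) encodes the retinaldehyde dehydrogenase that was the most abundant of the 9 RNAs at all 6 juvenile ages. It was at 944, 953 and 866 TPM at 8 dpp and at 774, 770.5, 803, 781 and 721 TPM at 16 dpp. At 18 dpp mice 1 to 3 had 441, 455 and 439 TPM, and mice 4 and 5 had 639 and 736 TPM. The 18 dpp mice thus formed separate groups that did not overlap, with mouse 5 inside the range of 16 dpp. The difference between 18 and 8 dpp was -0.80 ± 0.12 (adjusted p = 1.8e-06). The adult samples held 25.6, 33.1, 28.5 and 28.8 TPM, or 3.15% of the 8 dpp mean, beside 4.22% for the Sertoli sum. The part of Sertoli RNA in this gene's course was not tested.

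Aldh1a2 (ENSMUSG00000013584, chr9:71215789-71296243, plus strand) encodes the second retinaldehyde dehydrogenase of the list and took the opposite course at the end. Its level was 147, 133 and 154 TPM at 8 dpp and 116, 118, 128, 109.9 and 106 TPM at 14 dpp. By 18 dpp it was 165, 176, 169.8, 143 and 137 TPM. Mice 1 to 3 of 18 dpp lay above every 8 dpp mouse, and mice 4 and 5 lay inside the 8 dpp range. The step from 16 to 18 dpp was 0.30 ± 0.08 (adjusted p = 0.0038), and the difference between 18 and 8 dpp was 0.12 ± 0.10 (adjusted p = 0.25). Scaled by median-of-ratios factors, which shift the median of all genes between 18 and 8 dpp to 0.05, that difference was 0.30 (adjusted p = 0.026). With mice 1 to 3 of each age alone it was 0.24 (adjusted p = 0.01), and with 18 dpp mice 4 and 5 alone it was -0.042 (adjusted p = 0.77).

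The 4 adult pools held between 195 and 203 TPM of Aldh1a2, the narrowest spread of the 9 genes in proportion to its level. Aldh1a2 stood first among the 9 genes in the adult samples, separate from Aldh1a1 at 29.0 TPM. At 8 dpp the order was the reverse, with Aldh1a1 at 921 ± 47.4 TPM (SD, n = 3) and Aldh1a2 at 144 ± 10.8 TPM. The adult and juvenile tables were made separately, so the adult values are levels beside the juvenile ones and were not tested against them. Among the markers, the pachytene sum moved the same way as Aldh1a2 from 14 dpp onward, from 267 TPM at 14 dpp to 9750.1 TPM in adult samples. So did the spermatid sum, from 7.55 TPM at 14 dpp to 832 TPM in adult samples. The part of either in the result was not tested.

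Crabp1 (ENSMUSG00000032291, chr9:54764748-54773110, plus strand) encodes a cytoplasmic binding protein of retinoic acid. Its mean over all mice was between 114 and 122 TPM from 8 to 14 dpp. At 14 dpp mice 1 to 3 held 126, 96.1 and 104 TPM and the later-numbered mice 142 and 140.3 TPM, so the sets did not overlap. At 16 dpp the mice held 71.1, 85.9, 90.8, 95.6 and 91.5 TPM, and at 18 dpp 53.0, 55.9, 48.0, 70.3 and 73.8 TPM. No mouse of 16 or 18 dpp reached the 96.1 TPM of the lowest mouse at 14 dpp. The steps from 14 to 16 dpp, -0.47 ± 0.11 (adjusted p = 0.0032), and from 16 to 18 dpp, -0.54 ± 0.11 (adjusted p = 0.00032), both passed the test. For the step from 14 to 16 dpp, 11.3% of all genes were called lower. The adult samples averaged 2.02 ± 0.919 TPM (SD, n = 4).

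Cyp26b1 (ENSMUSG00000063415, chr6:84571414-84593908, minus strand) encodes a cytochrome P450 that clears retinoic acid and is known from the fetal testis for keeping germ cells out of meiosis. Its level was 87.0, 101 and 83.0 TPM at 8 dpp, was 133, 179.5, 133, 182 and 215 TPM at 14 dpp, and was 63.6, 56.6, 58.3, 111 and 118 TPM at 18 dpp. In all 5 mice of 14 dpp it was above all 8 dpp mice. At 18 dpp mice 1 to 3 were below the lowest 8 dpp mouse and mice 4 and 5 above the highest. The difference between 18 and 8 dpp was -0.22 ± 0.22 (adjusted p = 0.39). Since 8 dpp has mice 1 to 3 only, set and age are mixed in it. Mice 1 to 3 of each age alone gave -0.59 (adjusted p = 0.00027), the mouse set as a covariate gave -0.42 (adjusted p = 0.0071), and 18 dpp mice 4 and 5 alone against 8 dpp gave 0.34 (adjusted p = 0.20).

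At all 5 ages that have both sets, each later-numbered mouse had more Cyp26b1 than each of mice 1 to 3. With age in the model the later-numbered mice were 0.51 ± 0.07 higher (adjusted p = 0.00022), and Crabp1 and Rarg were higher in them by 0.23 ± 0.06 (adjusted p = 0.025) and 0.20 ± 0.05 (adjusted p = 0.023). These are 3 of the 8 genes, beside 3.23% of all genes called in either direction. All 5 peritubular markers were also higher in the later-numbered mice, Cnn1 by 0.55 and Acta2 by 0.52. So were all 4 endothelial markers, by 0.37 to 0.42 (adjusted p from 0.0027 to 0.0059), and the endothelial sum averaged 35.0 TPM in mice 1 to 3 of 18 dpp and 60.1 TPM in mice 4 and 5. At 18 dpp the peritubular sum was 524 to 586 TPM in mice 1 to 3 and 1006 and 1034 TPM in mice 4 and 5, and across the ages its mean was highest at 14 dpp, as that of Cyp26b1 was. The part of peritubular or endothelial RNA in the level of Cyp26b1 was not tested.

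**Figure D3:**
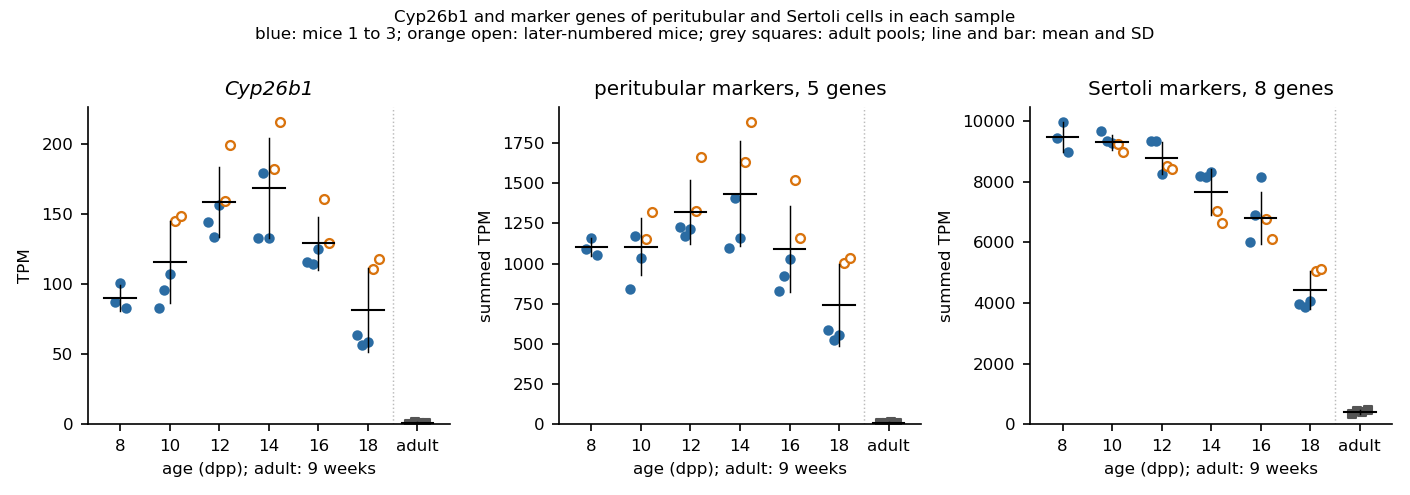
Cyp26b1 in TPM and the summed TPM of the peritubular and Sertoli markers, by age and sample, on linear axes from 0 with the symbols of the plot of levels by age. Later-numbered mice, as open orange points, are higher for Cyp26b1 at every age from 10 to 18 dpp, and its adult squares lie at 0.33 to 1.44 TPM.

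With the mouse set in the model, the rise of Cyp26b1 from 10 to 12 dpp passed the test at 0.47 (adjusted p = 0.0032), and without it the same step had an adjusted p of 0.079. In that step 12% of all genes were called higher. The step from 14 to 16 dpp behaved alike, at -0.37 with an adjusted p of 0.018 and of 0.17. In the adult samples Cyp26b1 was at 0.33, 1.44, 1.05 and 0.87 TPM, the lowest mean of the 8 genes of the gene table, beside 0.705% of the 8 dpp level for the peritubular sum.

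Rara (ENSMUSG00000037992, chr11:98927818-98974942, plus strand) was the most abundant of the 3 retinoic acid receptor genes at every age. The mice held 74.3, 85.6 and 81.3 TPM at 8 dpp and 111, 97.3, 92.1, 81.5 and 79.3 TPM at 10 dpp. At 16 dpp they held 50.7, 54.6, 63.0, 60.4 and 56.1 TPM, and at 18 dpp 37.5, 34.9, 38.5, 49.9 and 47.5 TPM. All 18 dpp mice lay below all 16 dpp mice, and these below all 8 dpp mice. Rara was the gene of the 8 that fell in most steps, at 12 against 10 dpp (-0.31 ± 0.09, adjusted p = 0.011), at 16 against 14 dpp (-0.35 ± 0.09, adjusted p = 0.0043) and at 18 against 16 dpp (-0.45 ± 0.09, adjusted p = 0.00013). The step from 10 to 12 dpp, in which 9.39% of all genes were called lower, had an adjusted p of 0.051 without mouse 1 of 10 dpp, the mouse with 111 TPM.

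Rarg (ENSMUSG00000001288, chr15:102234938-102257517, minus strand) was lower than Rara in every sample. It was at 16.3, 15.4 and 17.7 TPM at 8 dpp, at 16.8, 17.6, 17.4, 23.0 and 20.3 TPM at 14 dpp, and at 10.4, 10.7, 13.1, 14.2 and 14.1 TPM at 18 dpp. No 18 dpp mouse reached the 8 dpp range, and the difference was -0.38 ± 0.11 (adjusted p = 0.0046). It was -0.21 (adjusted p = 0.064) with median-of-ratios scaling and -0.20 (adjusted p = 0.18) with 18 dpp mice 4 and 5 alone. In adult samples Rarg kept 16.0% of its 8 dpp level and Rara 7.06%, at 2.63 ± 0.344 and 5.68 ± 1.56 TPM (SD, n = 4).

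Rarb (ENSMUSG00000017491, chr14:16430839-16819156, minus strand), the receptor gene that retinoic acid itself is known to induce in many cells, had the lowest level of the 9 genes at every age. Its summed transcripts were 0.84, 1.02 and 0.44 TPM at 8 dpp and 0.17, 0.11, 0.09, 0.29 and 0 TPM at 18 dpp, and in adult samples it was listed at 0.08 TPM in sample 3 and at 0 in the other samples. In a fit over all 60085 genes above 0 the difference between 18 and 8 dpp was -0.63 ± 0.17 (adjusted p = 0.0041), where 15.8% of genes were called lower. At this level the added 1 TPM shrinks the log difference, read counts behind the values are unknown, and Rarb overlaps Top2b on the other strand.

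Stra8 (ENSMUSG00000029848, chr6:34920163-34939344, plus strand) is the retinoic acid-responsive gene that germ cells need for meiotic entry. The promoter windows of RefSeq for GRCm38.p6, from 250 bases before to 50 bases after each transcription start, cover all 9 genes in 17 windows. They were searched on both strands for the hexamers AGGTCA and GGGTCA and for AGTTCA and GGTTCA, to which retinoic acid receptors are known to bind when they are repeated in tandem. The 250 bases before the RefSeq start of Stra8 are chr6:34920698-34920947 on the plus strand. They are shown because they hold the hexamer AGGTCA at 2 places, given in capitals. The direct repeat of Rarb, chr14:16575513-16575529 on the minus strand, is shown for comparison, with its pair of hexamers in capitals and the 5 bases between them in lower case.
Stra8: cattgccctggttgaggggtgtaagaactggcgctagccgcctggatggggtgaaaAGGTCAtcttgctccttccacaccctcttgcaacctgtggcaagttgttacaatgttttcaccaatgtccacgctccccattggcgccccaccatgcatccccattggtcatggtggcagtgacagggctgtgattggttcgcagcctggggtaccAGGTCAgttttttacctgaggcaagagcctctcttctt
Rarb: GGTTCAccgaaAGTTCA

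The hexamers of Stra8 begin 194 and 38 bases before this start, chr6:34920948, which is nearest to that of Stra8-203. The transcript Stra8-201 starts upstream, at 34920163, so the stretch shown lies inside the annotated gene. Of 32851 windows of all genes, 1.79% hold AGGTCA at least 2 times on either strand, and 43.7% hold any of the 4 hexamers. A direct repeat with a 5-base spacer, as in Rarb, was found in 0.0974% of windows and in no window of the other members. In Rarb it begins 53 bases before the RefSeq start used. There it lies inside the transcript Rarb-201, whose annotated 5' end is at 16575543, and the annotated gene extends to 16819156. Among the 17 windows of the 9 genes, 7 hold a hexamer, and Aldh1a2, Crabp1 and Cyp26b1 have none in theirs. Matches describe the letters only and were not compared with binding data.

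The level of Stra8 was 235, 164 and 227 TPM at 8 dpp, 151, 189.6, 176, 174 and 177 TPM at 10 dpp, and 154, 158, 179, 165 and 166 TPM at 12 dpp. It was 148, 132, 148, 155 and 152 TPM at 14 dpp and 136, 150.1, 148, 122 and 110.2 TPM at 16 dpp. At 18 dpp it was 76.0, 74.2, 79.7, 99.5 and 104 TPM. Neighbouring ages overlapped up to 16 dpp, and every 18 dpp mouse lay below every 16 dpp mouse. The steps up to 16 dpp ranged from -0.25 to -0.07 and none passed the test, whereas the step from 16 to 18 dpp was -0.62 ± 0.10 (adjusted p = 1.9e-05). The difference between 18 and 8 dpp, -1.25 ± 0.12 (adjusted p = 3.7e-10), was the largest fall of the 8 genes on this scale, next to -1.22 ± 0.13 for Stra6. Whether these falls differ was not tested. Adult samples held 4.62, 1.47, 3.20 and 1.69 TPM.

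**Figure D4:**
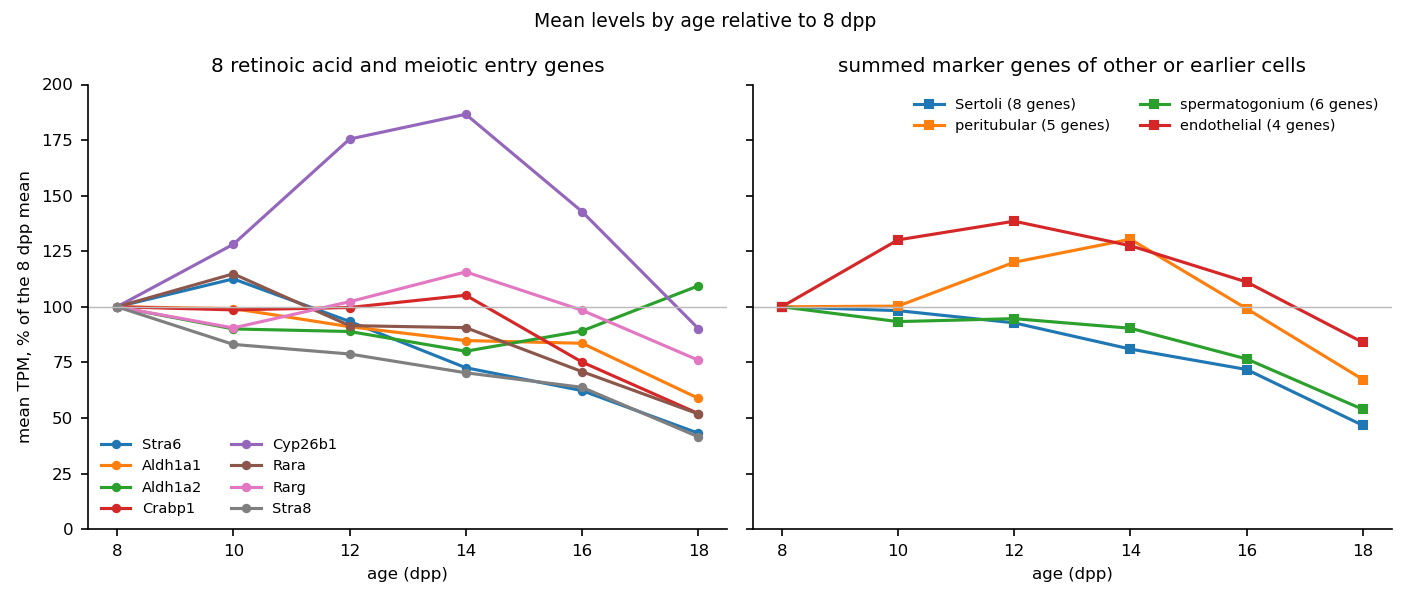
Mean TPM of the 8 genes of the gene table (left) and of summed marker genes (right) by age, as a percentage of the 8 dpp mean, on a linear axis from 0. At 18 dpp Stra8 and Stra6 lie at 41.5% and 43.1%, the Sertoli, spermatogonium and endothelial sums at 46.6%, 53.8% and 84.0%, and Aldh1a2 at 109%.

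The fall from 16 to 18 dpp was larger in mice 1 to 3. In these mice Stra8 averaged 145 TPM at 16 dpp and 76.6 TPM at 18 dpp, and in the later-numbered mice 116 and 102 TPM. The step was 0.72 smaller in the later-numbered mice by the test of the difference (adjusted p = 0.0048), and differed likewise for Aldh1a1 by 0.68 (adjusted p = 0.0012), Cyp26b1 by 0.64 (adjusted p = 0.023) and Stra6 by 0.62 (adjusted p = 0.022). That makes 4 of 8 genes, beside 18% of all genes tested. With the later-numbered mice alone, 2 an age, 0 of the 8 genes passed limma's test in that step, and 5 had an unadjusted p under 0.05 (4 lower, 1 higher). With mice 1 to 3 alone all 8 passed. The sets were defined after the data had been seen. The spermatogonium sum at 18 dpp averaged 334 TPM in mice 1 to 3 and 456 TPM in mice 4 and 5, and its part in these differences was not tested.

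The fall of Stra8 was shared by its annotated transcripts. All 4 were tested, and all 4 were lower at 18 than at 8 dpp. Stra8-203, which made up 63.8% of the RNA at 8 dpp and 67.3% at 18 dpp, went from 133 to 59.2 TPM, and Stra8-202 from 56.9 to 21.6 TPM. Over the 8 genes, 22 transcripts reached 3 TPM in a mouse and 13 of them differed among the ages, beside 48.1% of all transcripts tested. From 8 to 18 dpp, 11 of the 22 were lower and 0 higher, also 0 at an unadjusted p under 0.05 in limma, beside 23% of transcripts lower and 21.1% higher.

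Of the 5 Rara transcripts tested, 2 were lower at 18 than at 8 dpp. Rara-202 (chr11:98960412-98974942), the form with the most downstream start, fell by 1.65 ± 0.24 on the log2 scale between 8 and 18 dpp (adjusted p = 2.2e-06), and its share of Rara RNA went from 29.7% to 17.7%. Rara-204, the most abundant form, was at 34.0 TPM and 16.4 TPM, with a share of 42.3% and 39.9%. Rara-203 was at 4.26 and 6.24 TPM, a difference that did not pass the test. Rara-201 was at 3.09 TPM at 8 dpp, 0.426 ± 0.583 TPM (SD) at 16 dpp and 3.43 TPM at 18 dpp. It rose by 1.63 ± 0.44 from 16 to 18 dpp (adjusted p = 0.0064), a step that starts near the floor. Whether the transcripts differ in their change was not tested. Shares of transcripts rest on RSEM's division of reads among overlapping forms, and differences between shares were not tested.

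**Figure D5:**
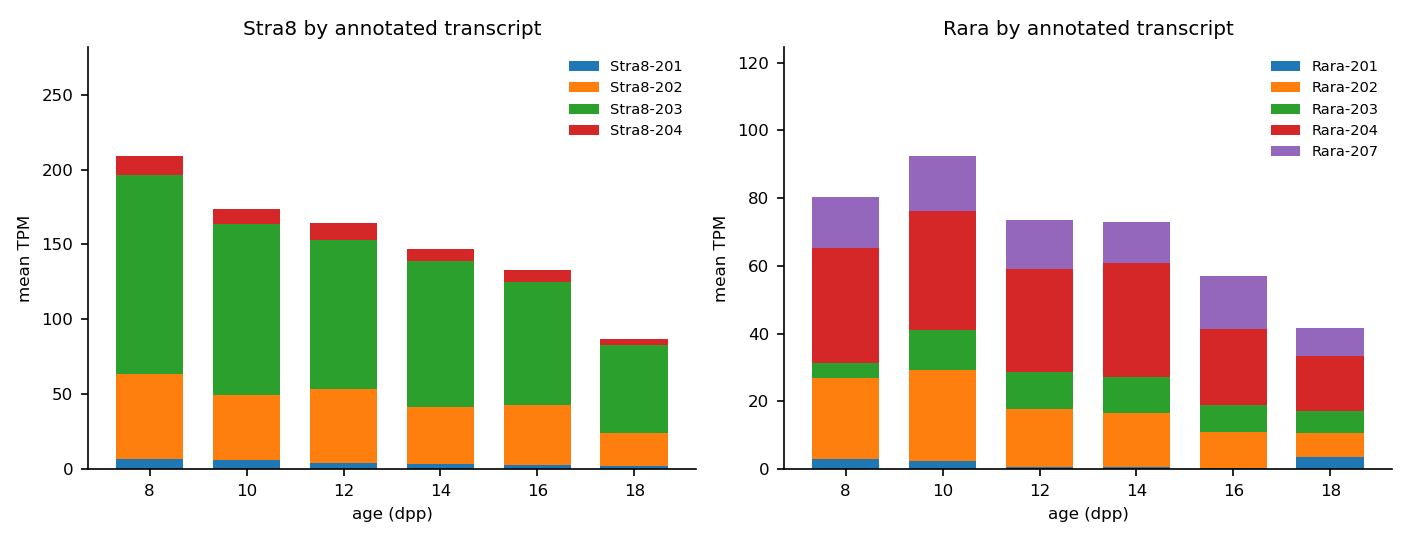
Mean TPM by age of the transcripts of Stra8 (left) and Rara (right) that reached 3 TPM in a mouse, stacked on linear axes from 0. Stra8-203 stays the largest part of Stra8, and Rara-202, in orange, shrinks from 23.9 TPM at 8 dpp to 7.34 TPM at 18 dpp.

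The 8 genes of the gene table were compared over the 28 mice by Pearson's r of log2(TPM + 1), given as a description because all points share the course of age. Stra6 and Rara were most alike, at 0.93, and Aldh1a2 and Cyp26b1 least alike, at -0.78. Aldh1a2 had a negative r with each of the other 7 genes. Over all genes of the table, the nearest to Stra8 were Hccs at 0.969 and Nxf2 at 0.961, and the nearest to Rara were Foxo3 at 0.980 and Bcl9l at 0.979. Cyp26b1 was most like Eml1 at 0.964 and Tgfb1i1 at 0.963, Aldh1a1 most like Ctsb at 0.969 and Itm2b at 0.968, and Stra6 most like Gpx8 and Hsd17b12, both at 0.966. Crabp1 was nearest to Ptp4a3 at 0.957 and E2f1 at 0.955. The best matches were weaker for Rarg, with Tbx1 at 0.877 and Ss18l1 at 0.863, and for Aldh1a2, with Acp1 at 0.841 and Btf3 at 0.838.

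The other genes of retinoid handling and meiotic entry were taken from a list of 51 matched genes, of which 42 are not among the 9 and 38 of those are in the gene table. Of the 38, 35 differed among the ages, 10 were higher at 18 than at 8 dpp and 19 lower, beside 77.6%, 31.8% and 36.3% of all genes. The median difference was -0.30, and that of all genes -0.09. The step from 16 to 18 dpp differed between the mouse sets for 12 of the 38, beside 18% of all genes, among them Rdh11 (-0.95, adjusted p = 0.013), Rxra (0.68, adjusted p = 0.0014) and Dmrtb1 (-1.51, adjusted p = 0.00097), as later-numbered mice minus mice 1 to 3. In vitamin A storage, Lrat, which esterifies retinol, rose by 1.61 ± 0.17 from 0.19 to 2.62 TPM (adjusted p = 2.8e-09).

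Among 7 retinol and retinal dehydrogenases, 2 rose and 3 fell, where 31.8% of all genes rose and 36.3% fell. Rdh11 rose by 3.25 ± 0.21, from 13.2 to 141 TPM, and averaged 408 TPM in adult samples. Rdh10, which makes the retinaldehyde for retinoic acid in embryos, was lower by a difference of -1.42 ± 0.13, and Adh5 by -0.96 ± 0.10. Aldh1a3, the remaining retinaldehyde dehydrogenase, rose from 4.12 to 7.35 TPM, a difference of 0.69 ± 0.18 (adjusted p = 0.0012). Cyp26a1, the other hydroxylase above 3 TPM, rose by 1.04 ± 0.18 between 10 and 12 dpp (adjusted p = 0.00012), the step in which Cyp26b1 passed with the mouse set in the model. Its difference between 18 and 8 dpp was 0.10 ± 0.21.

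Both RXR genes of the table fell, Rxra by a difference of -1.44 ± 0.11 and Rxrb by -0.26 ± 0.07. So did 4 of 5 receptor co-regulators, with Ncoa1 at -0.68 ± 0.08, where 36.3% of all genes fell. The carrier Crabp2 was lower, at -0.65 ± 0.22, and Fabp5 was at 0.05 ± 0.15. Rxrg, Adh7, Cyp26c1 and Nanos2 were not in the gene table, and their highest juvenile values ran from 0.46 to 2.73 TPM.

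Of 9 further activators of meiotic entry, 3 rose and 5 fell, beside the same 31.8% and 36.3% of all genes. Meioc, which works with Ythdc2 to keep germ cells in meiotic prophase, rose by 1.53 ± 0.13, from 48.1 to 139 TPM, and Rbm46, an RNA-binding protein of the same pathway, rose by 1.12 ± 0.10. Sohlh1, a transcription factor of spermatogonia, and Kit, the receptor of differentiating spermatogonia, differed by -1.35 ± 0.13 and -0.85 ± 0.10. Gm4969, the earlier symbol of Meiosin, whose protein binds STRA8, was at 73.8 TPM at 8 dpp and 52.6 TPM at 18 dpp, a difference of -0.48 ± 0.15 (adjusted p = 0.0052), and it was 0.815 TPM in adult samples. Dazl did not pass between 8 and 18 dpp.

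Among 8 further regulators of meiotic entry, 3 rose and 3 fell, shares near the 31.8% and 36.3% of all genes. Dmrt1, which represses Stra8 in spermatogonia, was lower as well, by a difference of -1.28 ± 0.09, from 258 to 107 TPM. E2f6, a member of the repressor complex PRC1.6, differed by -1.01 ± 0.09. Pcgf6, another subunit of that complex, rose by 2.00 ± 0.14, from 20.0 to 83.3 TPM, and Dmrtb1 rose by 2.77 ± 0.26, from 54.9 to 420.3 TPM. Dmrtb1 averaged 1427 TPM in adult samples, and at 18 dpp its SD over the 5 mice was 191 TPM.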

How the data were processed

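Poly-A libraries were sequenced as paired-end reads, which the authors filtered by quality, aligned with Bowtie 1.0.0 to a combined mm10 transcriptome and quantified with RSEM 1.2.8. The deposited transcript and adult tables hold TPM. The deposited juvenile gene table holds a score that, judged from its values, is exp(log2(TPM + 1)) - 1, a form no source states, and it was converted back to TPM. The 8 genes then differed from their summed transcripts by at most 0.02 TPM, and 80 of all genes by over 0.2 TPM. The strand setting is not given in the sources used here. TPM keeps no read counts, so depth and counting error are unknown, and p-values measure the spread between mice.

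Log2(TPM + 1) of 20368 genes went into 1 model of 28 mice and 6 ages (limma 3.58.1, R 4.3.3; mean-dependent variance prior). P-values were adjusted by Benjamini-Hochberg over all genes, calls are adjusted p under 0.05, and the fit was tested on simulated data. Differences are shown with their SE. Transcripts at 3 TPM or more in a mouse (41089) were fitted alike. Rarb was fitted with all genes above 0. The adult table was not tested against the juvenile tables. Columns of the authors' substage assignments were not used. From the other genes of each list, up to 2 of the largest rises and 2 of the largest falls between 8 and 18 dpp among those differing among the ages were named, and 2 genes most alike per member over 28 mice; Cyp26a1, Fabp5, Gm4969, Dazl and the genes under 3 TPM were named after their values were seen. 2 genes that this rule names are not reported here. The 9 genes, the lists and the markers were chosen with earlier results of these data known. 2 symbols of the list, Meiosin and Bhmg1, did not match by that name.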

Additional observations from a re-analysis of the deposited data

Results flagged for a closer look

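Among 54 groups of 4 or 5 samples, 2 held a sample far from the rest, and chance alone marks about 1 group in 20. Mouse 2 of 14 dpp had 942 TPM of Aldh1a1, and the other 4 mice of that age had 697 to 758 TPM. Adult sample 3 was listed at 0.08 TPM of Rarb, and the other adult samples were listed at 0.

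The step from 16 to 18 dpp differed between the later-numbered mice and mice 1 to 3 by limma's test of the difference for 4 of 8 genes. On the log2 scale the step of the later-numbered mice was higher by 0.72 for Stra8, 0.68 for Aldh1a1, 0.64 for Cyp26b1 and 0.62 for Stra6. At 16 dpp the later-numbered mice had less Stra8 than mice 1 to 3, at 116 against 145 TPM on average, and at 18 dpp they had more, at 102 against 76.6 TPM.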

How the results depend on the processing

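Alternatives changed the pseudocount, filter, scaling, variance prior, source table, samples fitted and mice; those that split mice by number were chosen after seeing the data. All 8 genes differed among the ages in every fit that left out 1 mouse, and counts over these fits ran from 6 to 6 lower and 0 to 0 higher at 18 against 8 dpp, from 0 (without 10 dpp mouse 1) to 2 lower (without 18 dpp mouse 2) and 0 to 1 higher (without 10 dpp mouse 4 or 5) at 12 against 10 dpp, from 0 to 1 higher (without 16 dpp mouse 4) at 16 against 14 dpp, and from 7 to 7 lower at 18 against 16 dpp. At 18 against 8 dpp, 1 gene was higher (0 in the reported fit) with median-of-ratios factors, with 18 dpp mice 1 to 3 alone and with mice 1 to 3 of each age. At 12 against 10 dpp, 2 were lower (1 as reported) with median-of-ratios factors, with only the 2 ages fitted and with either set of 18 dpp mice alone, and 0 with later-numbered mice only. In that step 1 was higher (0 as reported) with the mouse set as a covariate, with mice 1 to 3 of each age, with either set of 18 dpp mice alone and with the replicate block. At 14 against 12 dpp, 1 was lower with 18 dpp mice 4 and 5 alone, and at 16 against 14 dpp 4 were lower (2 as reported) with the set covariate. At 18 against 16 dpp, 1 was lower and 0 higher (7 and 1 as reported) with 18 dpp mice 4 and 5 alone, and 0 lower and 0 higher with later-numbered mice only, where 4 and 1 had an unadjusted p under 0.05 in limma; these fits have fewer mice. Of the transcripts, 7 (13 as reported) differed among the ages in later-numbered mice only. With 18 dpp mice 4 and 5 alone the difference between 18 and 8 dpp turned to -0.042 for Aldh1a2 and to 0.34 for Cyp26b1. Deviations from the age means over all genes had r from -0.25 to 0.25 (median 0.015) between same-numbered mice of different ages. The median r was 0.010 for other pairs within a mouse set and -0.013 between the sets, although some genes differed by set. This measure therefore cannot decide whether the numbers pair mice. The replicate block gave -0.43 for Cyp26b1 between 18 and 8 dpp (adjusted p = 0.012 in limma), against -0.22 (adjusted p = 0.39) as reported. Where no cause is given, the cause was not tested. Depth is unknown, which limits Rarb most.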
